A study of Mus musculus with 4 samples.

Results

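The cytosolic ribosomal protein genes encode the proteins of the ribosome outside mitochondria, and they were examined here as targets of miRNAs in overloaded mouse muscle. Members were the protein-coding genes of RefSeq (GRCm38.p6) named Rpl or Rps followed by a number, together with Rpsa, Rplp0, Rplp1 and Rplp2. Pseudogenes and the Rps6k kinases were left out. The rule gave 84 genes of 21896 protein-coding genes, 52 of the large and 32 of the small ribosomal subunit. A line of the data, which is 1 miRNA in 1 peak, belonged to a member when it overlapped the gene by at least 1 nucleotide on its strand. This gave 246 of 93468 lines in control library and 254 of 100897 in mimic library, in 64 peaks each.

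The data came from chimeric eCLIP-seq of the plantaris muscle of 5-month-old male C57BL/6J mice after 10 days of mechanical overload (MOV), which makes the muscle grow. In this assay Ago2, the protein that holds a miRNA against its target, is crosslinked and pulled down, and the miRNA is ligated to the RNA fragment beside it, so that a chimeric read names both. MOV control was plantaris injected with a control lentivirus, and MOV mimic was plantaris injected with a lentivirus that expresses a miR-1 mimic. By the methods the left plantaris received the control virus and the right one the mimic virus, so side and virus cannot be told apart. Both groups had been overloaded. Per the study, both viruses carried a TurboGFP reporter and a CMV promoter, which is not restricted to muscle fibres. There was 1 library per group, so no test between the conditions was possible, and the input library of each group was not analysed here. All intervals below are 95% intervals that cover counting error only, and a difference describes these libraries.

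The ribosome reads mRNA with its small subunit and joins amino acids in its large subunit, and each subunit is built of ribosomal RNA and many small proteins. Ribosomal protein genes are among the most highly expressed genes of a cell, have short mRNAs, and are known for translation that rises with growth signals, as in loaded muscle. Many of them also carry small nucleolar RNAs (snoRNAs) in their introns, which are cut out of the host transcript and guide methylation (box C/D snoRNAs) or pseudouridylation (box H/ACA snoRNAs) of ribosomal RNA. The reference held 59 snoRNA genes inside 30 of the 84 members. Of the 30 snoRNAs whose strand was known, 29 lay on the strand of the host.

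The miRNAs that were ligated most often to these genes fell into a few seed families, and their mature sequences are given to show which names share a seed and cannot be told apart by it. Sequences are those of RefSeq, and capitals mark the seed, bases 2 to 8 from the 5′ end. Reads of miRNAs that share a seed are summed below as a family. The miR-133 family holds miR-133a-3p and miR-133b-3p, and the miR-1/miR-206 family holds miR-1a-3p and miR-206-3p. miR-199a-3p and miR-199b-3p are identical along their whole length.
miR-26a-5p: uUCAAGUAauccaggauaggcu
miR-26b-5p: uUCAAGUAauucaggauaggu
miR-133b-3p: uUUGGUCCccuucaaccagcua
miR-206-3p: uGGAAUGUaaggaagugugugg
miR-199a-3p: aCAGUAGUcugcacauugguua
miR-199b-3p: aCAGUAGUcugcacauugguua
miR-24-3p: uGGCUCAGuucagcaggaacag
miR-214-3p: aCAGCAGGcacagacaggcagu
miR-21a-5p: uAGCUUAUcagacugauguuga
miR-15a-5p: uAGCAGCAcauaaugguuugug
miR-16-5p: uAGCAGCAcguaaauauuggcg

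The files held 232408 chimeric reads in MOV control and 259207 in MOV mimic, and the mimic library was 1.12 times as deep. The markers of skeletal muscle fibres, such as Acta1, Myh4 and Ttn, all had peaks, with 37140 reads in MOV control and 48590 in MOV mimic. The 5 fibroblast markers, all with peaks, had 4181 and 4118 reads together, and the leukocyte markers, 3 of 4 with peaks, had 52.6 and 73.2. The endothelial list had 20.5 and 39.1 reads, and of the Schwann cell markers Mbp had none. Whole muscle was pulverised, so the data do not show which cell type a read came from, and fewer cells of a type and less RNA per cell cannot be told apart.

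Ribosomal protein genes had chimeric reads in both libraries. They held 409.7 reads in MOV control (371 to 452), or 0.176% of the library (0.160% to 0.194%). In the mimic they held 386.4 reads (348 to 426), or 0.149% (0.134% to 0.165%). The ratio of mimic to control reads was 0.943 (0.817 to 1.08), against 1.12 for all reads, and divided by the library totals it was 0.846. The interval of the ratio contained 1 but lay below the ratio of all reads. Large subunit genes had 208.7 and 192.3 reads and small subunit genes 200.9 and 194.2, of which Rps12 alone had 89.1 and 84.2. At loci outside snoRNAs, described below, the 52 large subunit genes had 153.6 and 132.2 reads and the 32 small subunit genes 104.8 and 104.8.

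A chimeric peak was present on 36 members in MOV control, or 42.9%, where 29.3% of all 21138 protein-coding genes with a known strand had one. In the mimic it was present on 37 members, or 44%, where 30.6% of all genes had one. Over both libraries 42 members, or 50%, had a peak, against 35.1% of all genes. Of these, 31 had a peak in both libraries, 5 in MOV control only, and 6 in MOV mimic only. The genes seen in 1 library alone had at most 6.16 reads. At least 20 reads over both libraries were reached by 11 members, or 13.1%, against 12.6% of all genes. The members had a peak more often than all genes, and reached 20 reads about as often. Part of the peaks lay over other genes, such as snoRNAs. With lines over another gene left out, 30 members kept a peak in MOV control and 32 in MOV mimic. The same was not computed for all genes, and expression was not taken into account.

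**Figure D1:**
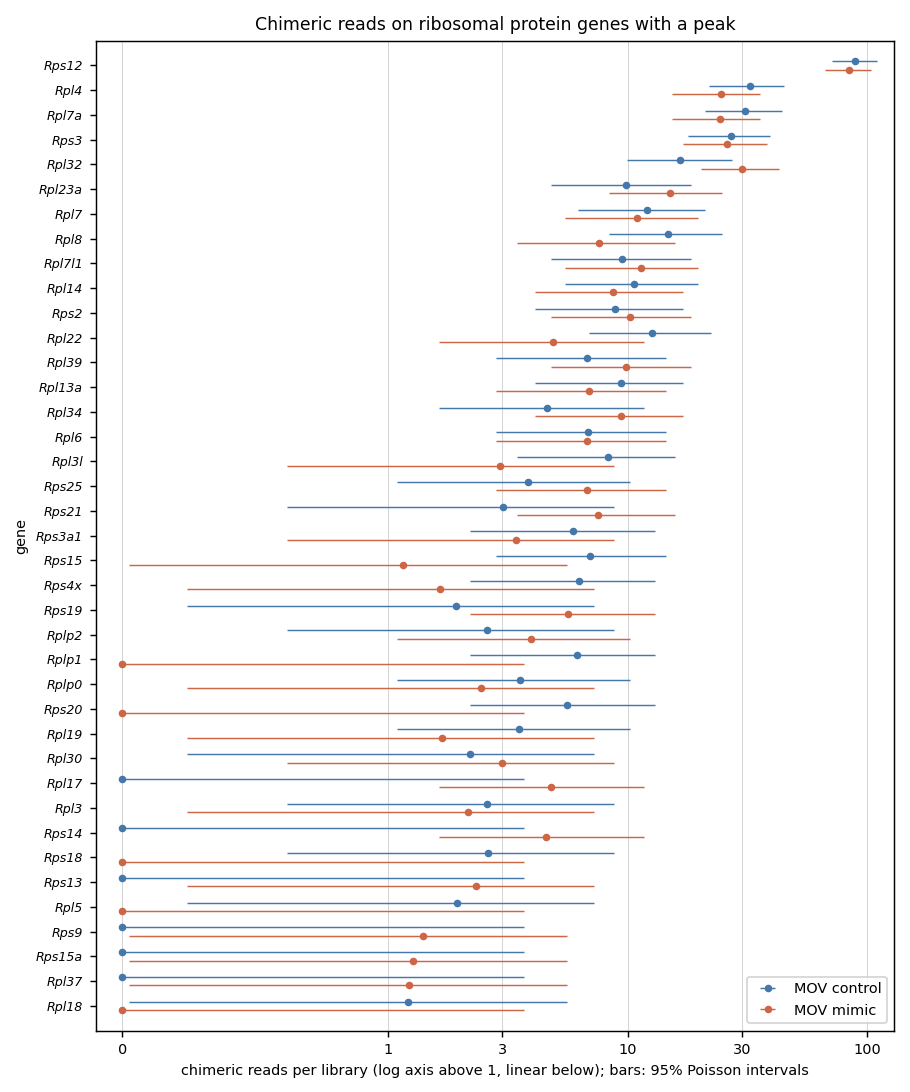
Chimeric reads (horizontal axis, logarithmic above 1) on 39 of the 42 ribosomal protein genes with a peak, in the control library (blue) and the mimic library (orange), with 95% Poisson intervals. Rps12 stands apart at 89.1 and 84.2 reads, and the intervals of the libraries overlap for every gene shown.

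The remaining 42 members had no peak in either library. They were 28 genes of the large subunit (among them Rpl9, Rpl10, Rpl10a, Rpl10l, Rpl11, Rpl12, Rpl13, Rpl15, Rpl21, Rpl22l1, Rpl23, Rpl24, Rpl26, Rpl27, Rpl27a, Rpl28, Rpl29, Rpl31, Rpl32l, Rpl35, Rpl35a, Rpl36, Rpl36a, Rpl37a, Rpl38, Rpl39l and Rpl41) and 14 of the small subunit (among them Rps6, Rps7, Rps10, Rps16, Rps23, Rps24, Rps26, Rps27, Rps27a, Rps27l, Rps28, Rps29 and Rpsa). Rps6, the ribosomal protein phosphorylated downstream of growth signalling, was thus among the genes with no peak. The files list peaks only, so a gene without a line may still have had reads. Ribosomal protein mRNAs also have many near-identical processed pseudogenes, and the treatment of reads that match several places was not given in the sources used here, so counts on members are uncertain in that respect.

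The reads on members came from 84 separate places, called loci below, each made of the peaks of a gene that overlapped or touched over both libraries. The 10 highest loci held 57.6% of the reads, and 39 loci had under 3 reads over both libraries. All 19 loci with at least 10 reads over both libraries were found in both. Of the 14 loci with at least 5 reads in each library, 13 had the same leading miRNA family in both.

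The highest locus lay over a snoRNA. Of the 84 loci, 11 overlapped a snoRNA gene, and these held 151.2 reads in MOV control and 149.4 in MOV mimic. This was 36.9% (32.1% to 41.7%) and 38.7% (33.7% to 43.7%) of the reads on members. Other nuclear protein-coding genes had 0.0491% and 0.0769% of their reads over snoRNAs. Counted on either strand, of the 59 snoRNA genes inside members 11, or 18.6%, had a line, against 14 of 402 (3.48%) inside other protein-coding genes and 8 of 879 (0.910%) elsewhere. A fragment of the host transcript and one of the snoRNA cut out of it cannot be told apart here. Rps12 carried much of the signal, and without it the snoRNA share of the reads on members was 19.4% in MOV control and 21.6% in MOV mimic.

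This highest locus was in Rps12, a gene of the small subunit. It covered chr10:23786472-23786544 on the minus strand (GRCm38), 97.3% of the annotated snoRNA LOC115487513, which is 74 nucleotides long, and 98.6% of the locus lay within that snoRNA. It held 89.1 reads (71.5 to 110) in MOV control and 84.2 (67.0 to 104) in MOV mimic, and no other place in Rps12 had a peak. The miR-26 family made up 94.3% of its reads in MOV control and 95.5% in MOV mimic. miR-26a-5p had 66.9 and 60.8 reads there, and miR-26b-5p had 17.1 and 19.6. At this locus, the reads of each of these miRNAs were within counting error between the libraries.

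The Rpl7a locus was of the same kind with other miRNAs. Rpl7a encodes a large subunit protein, and its only locus, chr2:26912528-26912604 on the plus strand, covered the whole 71 nucleotides of snoRNA LOC115489586. It held 30.8 reads (21.1 to 44.0) in MOV control and 24.3 (15.4 to 35.7) in MOV mimic. The miR-199-3p sequence had 13.0 reads in MOV control, all named miR-199b-3p, and 9.0 in MOV mimic, all named miR-199a-3p. The change of name ran through the whole files, in which miR-199b-3p had 3230 and 0 reads and miR-199a-3p 0 and 2935, and it is no difference between the muscles since the sequences are identical. miR-124-3p, known as a miRNA of neurons, had 12 and 6.99 reads at this locus. Of all 495.9 reads of miR-124-3p in the libraries 4.54% (2.80% to 6.64%) lay on ribosomal protein genes, against 0.996% of those of miR-26a-5p and 0.151% of those of miR-133a-3p.

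Rpl23a, a large subunit protein near the exit of the nascent chain, had its only locus over the box C/D snoRNA Snord4a. miR-133a-3p had 5.88 reads in MOV control and 11 in MOV mimic there, and miR-133b-3p had 4.0 and 3.0. Rpl39 had its only locus over the box H/ACA snoRNA Snora69, where miR-214-3p had 4.77 and 7.49 reads and miR-24-3p 2.0 and 2.39. In Rpl13a, Snord34 had miR-214-3p in MOV mimic only, with 3.0 reads. Rpl39 and Rpl13a were chosen after their values were seen. At least 84.1% of each of the 11 loci lay inside the snoRNA, and 5 of them covered at least 90% of it.

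**Figure D2:**
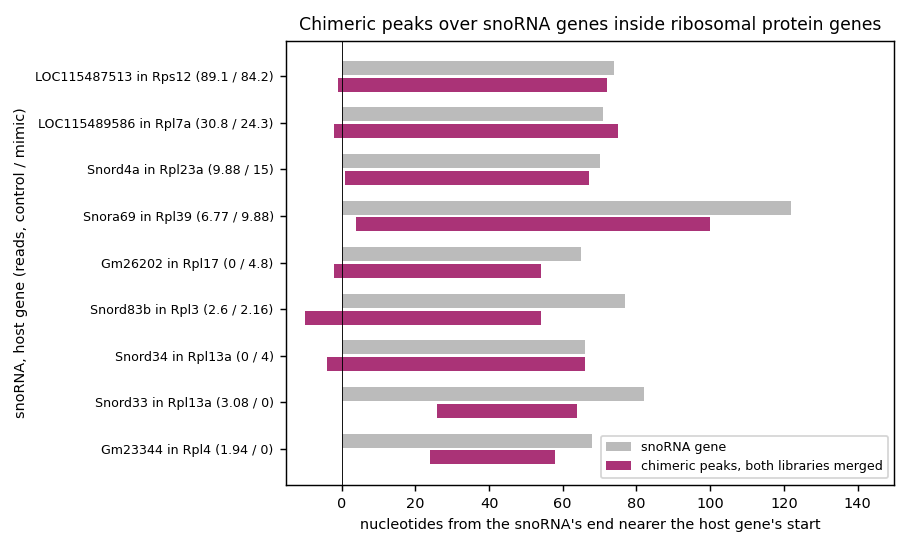
Extent of the annotated snoRNA gene (grey) and of the merged chimeric peaks (purple) at 9 of the 11 snoRNA loci, in nucleotides from the end of the snoRNA nearer the host gene's start, with reads in control and mimic in the labels. The peaks run along most of the snoRNA in Rps12, Rpl7a and Rpl23a and extend few nucleotides beyond it.

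Among the loci outside snoRNAs, Rpl32 was the highest. Rpl32 is a large subunit gene, and its locus lay at chr6:115807013-115807163 on the minus strand. It held 16.6 reads (9.90 to 27.2) in MOV control and 29.998 (20.2 to 42.8) in MOV mimic, led by miR-133a-3p with 14.1 and 24.9 reads, and the miR-133 family made up 85.1% and 82.9% of the locus. It had the largest rise among the 11 members with at least 20 reads, 0.70 on the log2 scale after division by the library totals. The interval of the unscaled ratio, 0.942 to 3.41, contained 1.

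Rpl4 lines the tunnel through which the new chain leaves the large subunit, and it had the most loci of any member, 9. It had 32.3 reads (21.9 to 45.2) in MOV control and 24.5 (15.4 to 35.7) in MOV mimic, which was within counting error, but they were placed differently in the libraries. The locus at chr9:64176105-64176202, on the plus strand, had 23.4 reads in MOV control and 7.11 in MOV mimic, a ratio of 0.304 (0.110 to 0.733). miR-133a-3p had 13.7 and 5.35 reads there, and miR-133b-3p had 6.95 and 1.74. Of the 39 loci seen in both libraries it was the 1 locus whose ratio had an interval without 1. Over all loci of members there were 5 such loci, 3 lower and 2 higher in MOV mimic, and the others were seen in 1 library only. The intervals were not corrected for the number of loci. Near the end of the gene a locus with 7.05 reads, led by miR-21a-5p with 2.74, was seen in MOV mimic only. These loci were looked at after their values were seen.

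Rps3, which sits where mRNA enters the small subunit, had 27.1 reads (17.8 to 39.3) in MOV control and 26.1 (17.0 to 38.1) in MOV mimic. Its main locus, chr7:99482258-99482357 on the minus strand, was led by miR-378a-3p, with 14.1 reads in MOV control and 12.6 in MOV mimic. miR-378a-3p, which is processed from an intron of Ppargc1b, is abundant in muscle. A separate locus of Rps3 was led by the miR-133 family, and miR-133a-3p had 4.38 and 5.29 reads at it. The 2 libraries thus held the same leading miRNA at both places, with similar reads.

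Further members with at least 20 reads included Rpl7, Rpl8 and Rpl7l1. Rpl7 had 12 and 10.9 reads, with miR-24-3p at 4.0 and 2.79. Rpl8, near the centre where peptide bonds form, had 14.7 (8.4 to 24.7) reads in MOV control and 7.58 (3.45 to 15.8) in MOV mimic, and the miR-133 family had 8.43 and 4.31 reads on it.

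Changes between the libraries were counted for the members with at least 20 reads, which were only 11. Reads were divided by the library totals, and a gene with at least 20 reads was called when it differed by at least 2-fold. No member of the 11 was called higher in MOV mimic, against 5% of the 2660 genes tested. Rpl8 was the 1 member called lower (9.09% of 11, against 6.99% of all genes), with a log2 ratio of -1.11, and the interval of its unscaled ratio, 0.196 to 1.34, contained 1. In either direction 9.09% were called, against 12% of all genes, and 11 genes are too few to tell these shares apart. The median log2 ratio of the 11 was -0.24, against -0.07 over all genes tested. Further log2 ratios below 0 included those of Rpl4 (-0.56), Rpl7a (-0.50) and Rpl7 (-0.30), and those above 0 included Rpl23a (0.44) and Rpl7l1 (0.10) beside Rpl32. Thus 4 of the 11 lay above the ratio of all reads and 7 below it. For each of the 11, the interval of the unscaled ratio contained 1. Among members under 20 reads, those of Rplp1 and Rps20, seen in MOV control only, did not (0 to 0.849 each).

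**Figure D3:**
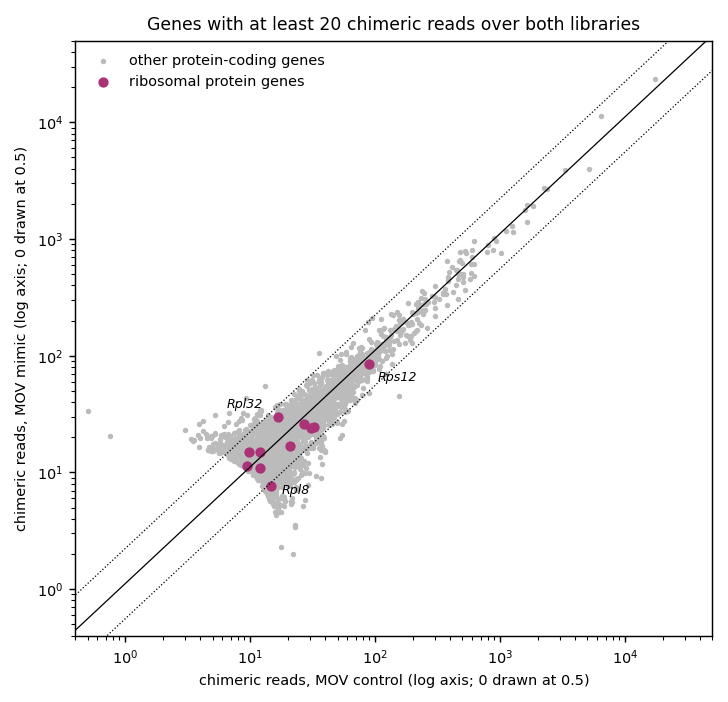
Chimeric reads in the control library (horizontal, log axis) and the mimic library (vertical, log axis) for the 2660 protein-coding genes with at least 20 reads, with the 11 ribosomal protein genes in purple. The solid line is the ratio of the library totals and the dotted lines are 2-fold above and below it. Rpl8 is the 1 ribosomal protein gene outside the dotted lines.

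Lines of the same miRNA that overlapped between the libraries were compared as well. Of the 246 control lines on members, 73 overlapped a mimic line of the same miRNA, or 29.7% (24.0% to 35.8%), against 34.2% on other nuclear protein-coding genes. The share was 18.3% for lines with under 1 read, 30.7% from 1 to under 3 reads, 81.0% from 3 to under 10 reads, and 6 of 6 lines above that. Most lines were of the first kind, 53.3% in MOV control and 65.4% in MOV mimic. The 72 pairs of lines had a median log2 ratio of mimic to control reads of -0.13 (-0.42 to 0.20), with an SD over pairs of 1.29. The median over other nuclear protein-coding genes was 0.04.

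miR-1a-3p, the miRNA that the mimic supplies, was a minor one on ribosomal protein genes. It had 11.1 reads (5.49 to 19.7) on members in MOV control and 16.9 (9.90 to 27.2) in MOV mimic, on 10 genes in all. The ratio was 1.52 (0.683 to 3.65), and that of all miR-1a-3p reads in the libraries was 1.31, which lay inside this interval. miR-206-3p, which shares its seed, had 5.29 and 2.24 reads on 8 members. Both names together had 16.4 and 19.1 reads, a ratio of 1.17. miR-10a-5p and miR-10b-5p had no line on a member, of 27.7 and 58.3 reads in the libraries.

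More than any other member, Rpl7l1 held miR-1a-3p reads. Rpl7l1 is a paralog of Rpl7 that is known to act in ribosome assembly. It had 9.51 reads (4.80 to 18.4) in MOV control and 11.4 (5.49 to 19.7) in MOV mimic. Its locus at chr17:46780447-46780545 on the minus strand held 5.67 reads of miR-1a-3p in MOV control and 8.89 in MOV mimic, which was most of its mimic reads. On Rpl7 itself miR-1a-3p had no read. Among the members with fewer miR-1a-3p reads were Rpl3l, with 1.08 and 0.669, Rpl4, with 0.489 and 0.671, and Rpl22, with 1.0 and 0. Rps25, Rplp1 and Rps20 had the same 1.0 read over both libraries as Rpl22.

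Rpl3l, the paralog of Rpl3 that is restricted to heart and skeletal muscle, had 8.26 reads in MOV control and 2.94 in MOV mimic, in 5 loci, with the miR-27 family at 4.14 and 0.713. Rpl3, which it replaces in mature muscle, had 2.60 and 2.16 reads, at 1 locus that overlapped Snord83b. Rpl3l had too few reads for the comparison of libraries. The other paralogs in the list that matched the rule, Rpl10l, Rpl22l1, Rpl39l and Rps27l, had no peak. Rpl22, which the cell can replace by Rpl22l1, had 12.7 and 4.88 reads, of which the miR-133 family made up 5.91 and 3.88.

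The stalk is the arm of the large subunit that recruits elongation factors, and its proteins had few reads. Rplp0 had 3.56 reads in MOV control and 2.45 in MOV mimic, Rplp1 had 6.16 and 0, and Rplp2 had 2.58 and 3.96. Rpl12, at the base of the stalk, and Rpsa, the small subunit protein also known as the laminin receptor, had no peak. The ubiquitin fusion gene Rps27a had none either, nor had Fau, which encodes a ribosomal protein under a symbol outside the rule.

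The next members by reads, each with 10 to under 20 over both libraries and chosen after their values were seen, were led by a variety of miRNAs. Rpl14 had the miR-15/miR-16 family at 3.77 and 5.65 reads, next to miR-22-3p at 3.0 and 2.0. Rps2 had let-7 at 7.85 and 7.84. Rps21 had the miR-15/miR-16 family at 2.06 and 5.62. Rpl6 had miR-24-3p at 3.0 and 4.89, and Rps25 had miR-21a-5p at 1.84 and 3.89. For each of these 5 genes the interval of the ratio between the libraries contained 1. Beyond the 11 members of this size, 20 members with a peak had under 10 reads.

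**Figure D4:**
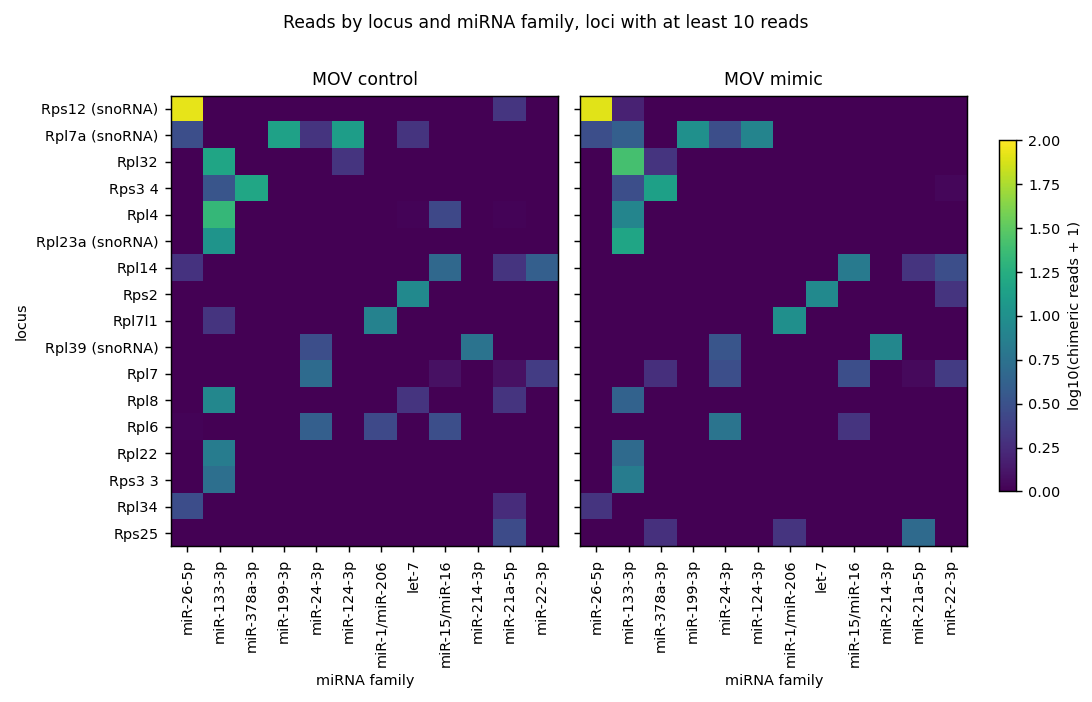
Chimeric reads, as log10(reads + 1) in colour, of the 12 miRNA families with the most reads (columns) at 17 of the 19 loci with at least 10 reads over both libraries (rows), with the MOV control on the left and the MOV mimic on the right. Most loci are held by 1 family, and it is the same in both panels at the brightest loci, such as miR-26-5p in Rps12 and miR-133-3p in Rpl32.

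By miRNA, 116 names occurred on members, 82 in MOV control and 85 in MOV mimic, of 659 in the files. The most frequent were miR-133a-3p, with 67.6 reads (52.8 to 86.2) in MOV control and 76.4 (59.9 to 95.1) in MOV mimic, and miR-26a-5p, with 73.8 and 69.2. miR-378a-3p had 20.1 and 19.7 reads, miR-26b-5p 18.6 and 19.6, and miR-24-3p 11.4 and 12.1. miR-133b-3p had 24.7 and 13.0 reads, a ratio of 0.528 (0.244 to 1.06). miR-124-3p had 14.6 and 7.90, and miR-21a-5p 8.55 and 9.61. As a family, miR-133 was spread over 29 members and had 92.3 and 89.4 reads, while miR-26 was on 10 members with 92.4 and 88.9 reads, nearly all of them in Rps12. The intervals of each of these unscaled ratios contained 1. That of miR-133b-3p, however, lay below the ratio of all reads, 1.12.

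The makeup at the snoRNA loci differed from that at the other loci beyond counting error. Over both libraries the miR-26 family had 56.0% (50.004% to 61.5%) of the reads at snoRNA loci and 2.58% (1.41% to 4.45%) at other loci of members, against 4.25% on other nuclear protein-coding genes. Without Rps12 its share at snoRNA loci was 3.14%. The miR-199-3p sequence had 9.26% at snoRNA loci and 0.383% at the others, miR-124-3p 6.56% and 0.563%, and miR-214-3p 5.08% and 0.0233%. Without Rpl7a, the miR-199-3p share at snoRNA loci was 2.39%. The miR-133 family had 9.25% at snoRNA loci and 31.1% (27.1% to 35.4%) at the others, against 29.1% on other genes, and without Rpl32 it was 25.6%. Each of these shares at snoRNA loci rested mostly on 1 or 2 genes.

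Outside snoRNAs, muscle miR-1/miR-206 had a smaller share of the reads on members than of the pooled reads on other genes. Its share was 7.06% (4.97% to 9.70%), against 16.6% (16.4% to 16.7%) on other nuclear protein-coding genes, and without Rpl7l1 it was 4.09%. let-7 had 5.11% (3.29% to 7.37%), against 8.96%. miR-378a-3p had 7.63% (5.49% to 10.4%), against 2.36%, but without Rps3 it had 2.34%. The miR-15/miR-16 family had 7.0% (4.97% to 9.70%), against 2.90%, and without Rpl14 it had 5.31%. The intervals count reads as independent, although reads of 1 locus are not independent of each other. The shares on other genes are of 366285 pooled reads, to which genes with many reads contribute most, such as Ttn with 41083. They were not recomputed without such genes.

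**Figure D5:**
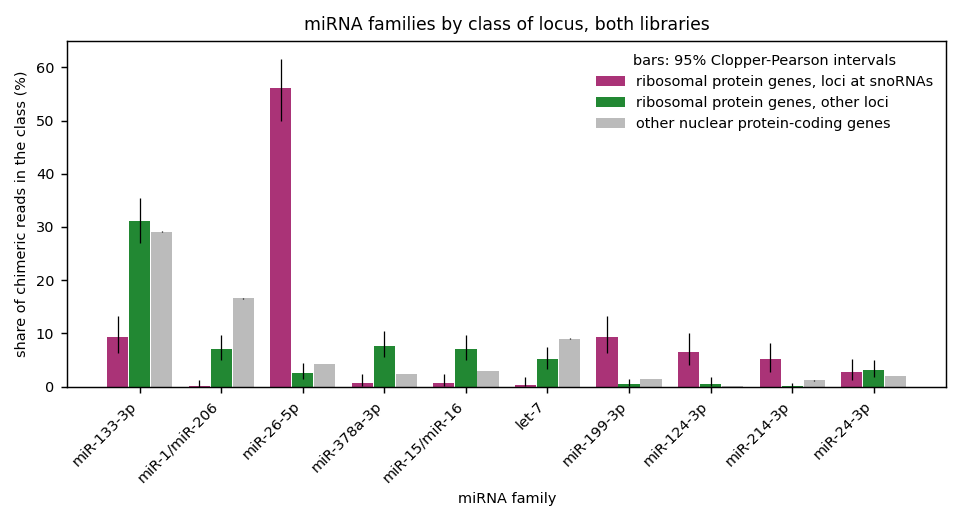
Share of chimeric reads (vertical axis, percent) of 10 miRNA families, over both libraries, at snoRNA loci of ribosomal protein genes (purple), at their other loci (green) and on other nuclear protein-coding genes (grey), with 95% Clopper-Pearson intervals. miR-26-5p takes 56.0% at snoRNA loci, and miR-1/miR-206 takes 7.06% at the other loci against 16.6% on other genes.

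The mRNAs of the members were searched for the 7 bases that pair with bases 2 to 8 of the seed, on the sense strand, in the GENCODE vM1 transcript of the same gene name. A transcript was found for 81 of the 84. Of the 21 pairs of a gene and a family with at least 3 reads outside snoRNAs and a seed sequence, 6 had such a match, and of the 10 pairs at snoRNA loci 2 had one. An mRNA lacks introns, in which such snoRNAs are carried, so the search cannot speak to the sequence at the snoRNA loci. The counts for the 2 kinds of pair therefore cannot be compared. A match of 5 of the 6 pairs is printed because it joins a seed above to a place in an mRNA, with the match in capitals. These pairs were picked after their values were seen, and all 5 matches lie in the coding sequence. The sixth pair, Rpl6 with miR-15/miR-16, is not printed and had 3 matches, 2 in the coding sequence and 1 in the 3 prime UTR.
Rpl32, miR-133, bases 91 to 119 of the mRNA: cgtcaaaaagaGGACCAAgaagttcatca
Rps19, miR-133, bases 631 to 659: atggtggaaaaGGACCAAgatgggggccg
Rpl6, miR-24-3p, bases 461 to 489: ctcggaagctgCTGAGCCacggcaagaag
Rps25, miR-21a-5p, bases 224 to 252: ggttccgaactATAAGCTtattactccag
Rpl14, miR-15/miR-16, bases 481 to 509: gctgcagctgcTGCTGCTgctaaagctaa
The 7 bases for miR-133 occurred in 12.3% of the 81 mRNAs, those for miR-24-3p in 7.41%, those for miR-15/miR-16 in 17.3%, and those for miR-21a-5p in 1.23%, which is Rps25 alone. Rpl14 held the miR-15/miR-16 match at 3 overlapping positions in a run of GCT repeats. The Rpl4, Rps3, Rpl8 and Rpl22 mRNAs, on all of which the miR-133 family had reads, held no 7-base match, nor did the Rpl7l1 mRNA for miR-1/miR-206. Whether a match lies beneath a peak was not analysed here, since exons in the build of the files were not used.

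Other genes of the translation machinery were compared by the same counts. All 6 elongation factor genes had a peak, with 453 reads in MOV control and 472 in MOV mimic, more than the 84 ribosomal protein genes together. Eef1a2, the elongation factor of muscle and neurons, had 246 and 276, and Eef2, which moves the ribosome along the mRNA, had 129 and 112. Of the 78 mitochondrial ribosomal protein genes 49 had a peak (62.8%), with 204 and 262 reads. Of the 22 genes for ribosome assembly 11 had one, with 97.6 and 129 reads, of which nucleolin (Ncl) had 54.5 and 73.0. The ratio of the sums was 1.04 for the elongation factors, 1.28 for the mitochondrial ribosomal proteins and 1.33 for the assembly genes, against 0.943 for the members.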

How the data were processed

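Chimeric Ago2 eCLIP-seq libraries of MOV control and MOV mimic plantaris (1 each of 4 libraries) were used. The authors deposited estimated counts, the chimeric reads of 1 miRNA in 1 peak, mostly fractional and not scaled to depth; the origin of the fractions was not given in the sources used here. According to the methods and the submitters' processing notes, UMI-tools 1.1.1, cutadapt 3.2, Bowtie 1.2.3, STAR 2.7.7a and HOMER 4.11 were used, with repeats filtered, duplicates removed and CLIPper peaks; multi-mapping could move reads among similar genes. The methods name mm9, whereas the coordinates fitted mm10 (GRCm38), as the labels state.

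Lines were assigned to RefSeq spans; the strand of 64 members came from RefSeq and of 20 from GENCODE vM1 by name. Estimated counts were summed per gene, locus and miRNA (Python 3.11.15, pandas 2.3.3, numpy 2.4.6, scipy 1.17.1), and rounded to whole reads for Poisson, Clopper-Pearson and conditional binomial intervals. Scripts were tested on simulated data. Depth was 232408 and 259207 reads. No count model was fitted, since each group had 1 library.

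Members and lists were chosen with earlier results of these data known. Named genes were the 10 with the most reads, the 5 largest rises and falls among those with at least 20 reads, the 5 with the most miR-1a-3p reads, and the paralogs; named miRNAs were the 10 with the most reads and those of miR-1, miR-133 and miR-10; named peaks were the 5 highest and that with the most miR-1a-3p reads. Some of these genes are not reported here. Alternatives changed the minimum reads per line, the overlap, the scaling, and the genes kept.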

Additional observations from a re-analysis of the deposited data

How the results depend on the processing

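Of the main comparisons, 44 values were recomputed under the alternatives. Of these, 32 lay inside the interval of the reported value, or within 1.5 times a reported count. The ratio of member reads stayed below 1, and that of miR-1a-3p reads on members stayed above 1. The order of the libraries in genes with a peak was less stable. It was 36 in MOV control and 37 in MOV mimic, and 30 and 32 with lines over another gene left out. With lines of at least 1 read it turned to 34 and 26. Of 8 further shares recomputed without their leading gene, chosen after seeing the data, the 7 given beside their results above moved beyond their interval, and the miR-15/miR-16 share without Rpl14 (5.31%) did not. The share of reads on members moved from 0.176% and 0.149% with lines of at least 3 reads (0.140% in MOV control and 0.114% in MOV mimic), with lines over another gene left out (0.111% and 0.0916%), without Rps12 (0.138% and 0.117%), and in MOV mimic with lines of at least 1 read (0.131%). Lines of at least 3 reads left 17 genes with a peak in MOV control and 15 in MOV mimic, and raised the share of overlapped control lines to 51.9%. The 2-fold call on Rpl8 was lost among the 5 genes with at least 40 reads, where 0 were called, and 2 genes were called at 1.5-fold. Counting a line for its largest overlap alone changed nothing, since no line overlapped another gene of known strand by more than the member. Ties went to the member, and genes of unknown strand, such as LOC115487513 and LOC115489586, were not considered. A line within a member could therefore not move to a snoRNA inside it. The unchanged values of this setting are among the 32 and do not show how the results depend on such snoRNAs. Pooling the miR-199 names, chosen after seeing the data, gave 30.5% of control lines overlapped. The cause of these moves was not tested beyond the fewer lines or genes kept. No paired analysis was possible because there was only 1 library per group. Depth limits most members, since 31 of the 42 with a peak had under 20 reads over both libraries, and 20 had under 10.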

Other observations

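Named pseudogenes of ribosomal protein genes, which the rule left out, were counted on either strand. Of 319 such pseudogenes 10 had a line, with 46.0 reads in MOV control and 51.2 in MOV mimic. Rpl3-ps1 had the most, 18.3 and 19.97 reads, led by the miR-133 family with 25.6 over both libraries, and so had more reads than Rpl3 itself (2.60 and 2.16). Rpl10a-ps1 had 7.68 and 10.2 reads, while Rpl10a had no peak. Rpl14-ps1 had 6.32 and 7.58 reads, and it lies inside Trpm4. How reads that match a gene and its pseudogene were placed was not tested.

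A snoRNA outside the members, LOC115487311, had more reads than the one in Rps12, with 191.6 over both libraries, inside another protein-coding gene. Over all, snoRNAs inside other protein-coding genes had 96.0 reads in MOV control and 166.6 in MOV mimic, and those inside members 151.2 and 148.9.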
